A study of Drosophila suzukii with 24 samples.

Results

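Of the 13584 gene models of Drosophila suzukii in the deposited tables, 45 were on in untreated laboratory flies and off in untreated field flies. On means 1 FPKM or more and off means under 0.1 FPKM, where FPKM is the fragment number of a gene model relative to its transcript length and to the size of the library. The gene models were chosen by these 2 untreated values alone, as the authors' malathion tables give them, and are called members below. They made up 0.481% of the 9349 gene models that were on in untreated lab flies.

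RNA of whole wild-type adults, 5 to 7 days old, was sequenced in 24 samples of 10 individuals each. The samples form 8 groups of 3. In each of 2 populations, strains named Field and Lab in the labels, 1 group was untreated and 3 groups had outlived spinosad, malathion or zeta-cypermethrin at the concentration lethal to 50% of the flies. Sex and length of exposure are not in the labels. The tables hold 1 FPKM value per group, with the 3 replicates pooled by the authors. Where 3 survivor values follow each other, their order is spinosad, malathion, zeta-cypermethrin. Levels are given without a spread, and differences between groups were not tested beyond the authors' own comparisons. Field and lab tables were normalised separately, and without counts the depth of a library is unknown.

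The species, known as spotted wing drosophila, attacks ripening fruit and is controlled mostly with insecticides. Spinosad acts on nicotinic acetylcholine receptors, malathion inhibits acetylcholinesterase and zeta-cypermethrin acts on voltage-gated sodium channels. Many insect genes are active in a single tissue, sex or physiological state, and RNA of whole flies mixes all of these. Fewer cells of a type and less RNA per cell cannot be told apart in such samples. The gene models carry IDs that start with DS10_, which the files do not pair with gene names, and 0 of them occurred in the reference table of 18239 genes, so no function is given to any member. Positions are those of the authors' own scaffolds, counted from 1. The genome build is not given in the sources used here.

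Most members lay close to the lab threshold. Their level in untreated lab flies ran from 1.01 to 17.5 FPKM with a median of 1.56 FPKM, against a median of 25.5 FPKM for the 9304 other gene models that were on in these flies. Between 1 and 2 FPKM stood 28 members, and 8 stood at 5 FPKM or more. In untreated field flies 28 members were listed at 0, and the other 17 were above 0, up to 0.0975 FPKM. The opposite rule, with field at 1 FPKM or more and lab under 0.1 FPKM, held for 7 gene models. These values chose the members and are a description only.

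The thresholds cut through a continuous range. Just inside the field limit were DS10_00005094, at 0.0975 FPKM in field and 1.13 FPKM in lab untreated flies, and DS10_00013426, at 0.0930 and 1.15 FPKM. Just outside it were DS10_00003864, at 0.1002 and 1.36 FPKM, and DS10_00012135, at 0.106 and 1.29 FPKM. The members nearest to the lab minimum were DS10_00005322, at 1.01 FPKM, and DS10_00006459, at 1.03 FPKM in untreated lab flies. The nearest gene models below it were DS10_00012258, at 0.997 FPKM, and DS10_00007451, at 0.973 FPKM. DS10_00007451 stood at 19.1, 13.4 and 18.8 FPKM in field survivors, higher than most members.

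The same untreated libraries appear in the other tables, where a few members changed side. By the zeta-cypermethrin tables the rule held for 44 of the 45, and by the spinosad tables it held for 39. The 3 members below, chosen for mention after their values were seen, were on in untreated lab flies in the malathion table but listed at 0 in the spinosad table. They were DS10_00010232 at 2.70 FPKM, DS10_00011720 at 2.48 FPKM and DS10_00012145 at 3.45 FPKM. The rule held in all 3 pairs of tables for 38 members.

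Across the 6 survivor groups, which the rule did not use, about 1 member in 2 was on. In the field, 24 members (53.3%) were on in spinosad survivors, 26 (57.8%) in malathion survivors and 26 (57.8%) in zeta-cypermethrin survivors. In the lab the counts were 22 (48.9%), 28 (62.2%) and 23 (51.1%). Of the 9304 other gene models that were on in untreated lab flies, 95.7% to 98.1% were on in each of the 6 survivor groups. The members' shares were below those of the other gene models in all 6 groups, lab included, and the members' shares in field and lab survivors overlapped in range. These differences were not tested. In untreated lab flies the median of the members was 1.56 FPKM and that of the other gene models 25.5 FPKM, so the 2 sets differ in level as well as in the field value. The shares also moved with the choice of members and of the limit. Among the 18 members tested by the authors in all 6 tables, 88.9%, 94.4% and 100% were on in field survivors and 72.2%, 88.9% and 77.8% in lab survivors, and such members had to be high enough in some group to be tested. With on set at 2 FPKM instead of 1 FPKM, 24.4% of all 45 were on in lab spinosad survivors.

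**Figure D1:**
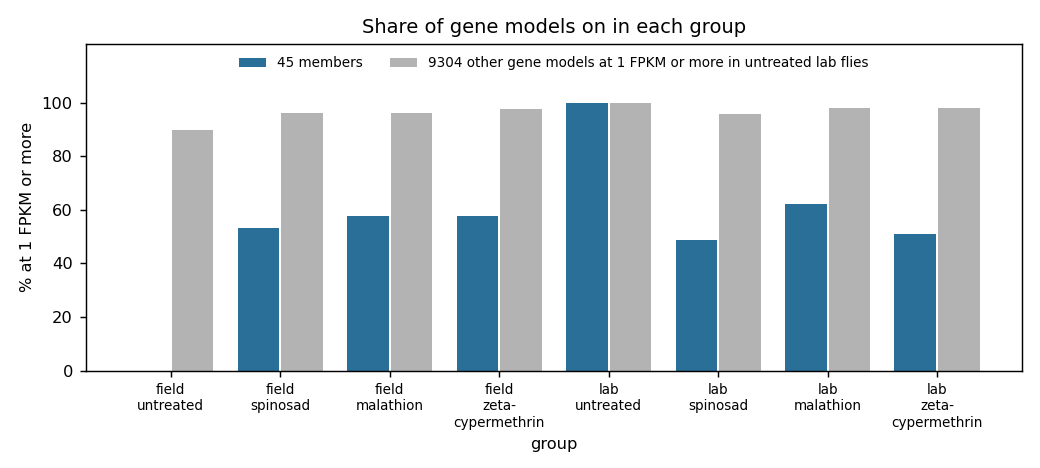
Percent of gene models at 1 FPKM or more (vertical axis) in each of the 8 groups, for the 45 members and for the 9304 other gene models on in untreated lab flies. The members stand at 0% and 100% in the untreated groups by the rule, and between 48.9% and 62.2% in the survivor groups.

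The median level of the members was 1.15, 1.61 and 1.96 FPKM in field survivors. In lab survivors it was 0.953, 1.45 and 1.25 FPKM. On the log2 scale with 0.1 FPKM added, the median ratio to untreated lab flies was −0.26, 0.03 and 0.15 in the field survivors and −0.54, −0.11 and −0.45 in the lab survivors. Over the 18 members tested in all 6 tables it was 1.54, 0.61 and 1.47 in the field survivors and −0.0473, 0.42 and 0.19 in the lab survivors. The untreated lab level is a value that chose the members, so these ratios are a description. Single members ranged widely around the medians, since 15 members were above their untreated lab level in all 3 field survivor groups and 16 were below it in all 3.

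Members did not share 1 pattern. In all 6 survivor groups 10 members were on (22.2%, against 93.0% of the other gene models), and in none of them 5 members (11.1%, against 0.484%). In the field 18 members were on under all 3 insecticides, 14 under 1 or 2 of them and 13 under none. In the lab 12 were on under all 3, 25 under 1 or 2 and 8 under none. At least 1 survivor group was listed at 0 for 19 members, and 15 of these 19 were on in another survivor group.

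**Figure D2:**
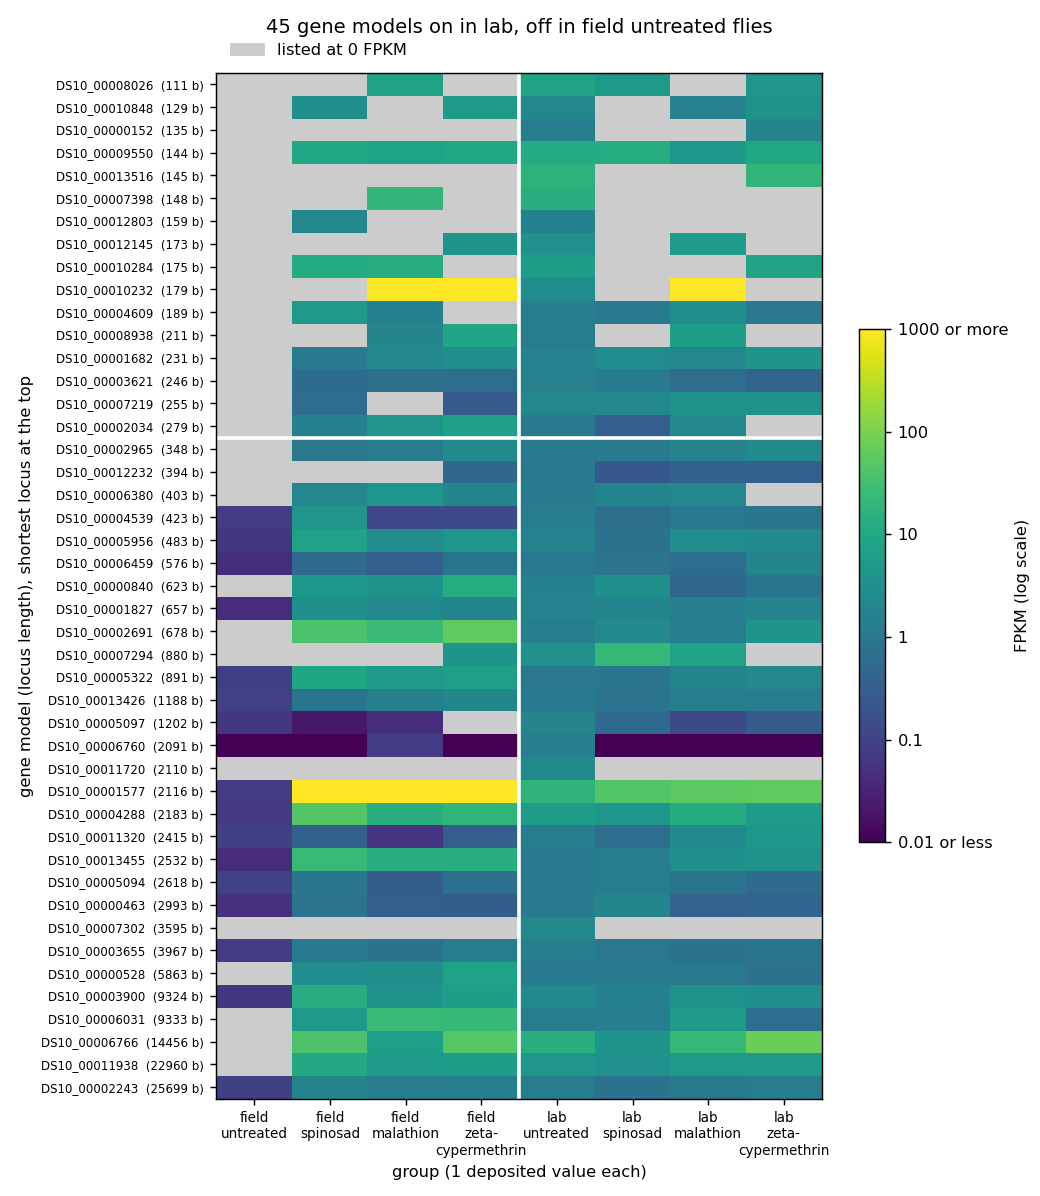
Level of each of the 45 members in the 8 groups, in FPKM on a log colour scale, with grey for a value listed at 0. Members are sorted by locus length, and the horizontal line separates the 16 with loci under 300 bases, all listed at 0 in untreated field flies, from the 29 longer ones.

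The strongest member was DS10_00001577 (scaffold 1, 18225808 to 18227923). It stood at 0.0729 FPKM in untreated field flies and at 1173, 1463 and 2413 FPKM in field survivors. In the lab it stood at 17.5 FPKM in untreated flies and at 44.9, 54.5 and 59.3 FPKM in the survivors in the same order. All 3 survivor groups were above the untreated group in each population, and the field survivors were above all lab groups. In the field survivors it ranked 128th, 90th and 64th of all gene models by level, and in untreated field flies 10553rd.

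By the authors' deposited tables its change was called in the lab and not in the field. In the lab it was 2.48-fold higher under spinosad (log2 fold change 1.31, q = 0.00246), 3.11-fold under malathion (1.63, q = 0.00191) and 3.48-fold under zeta-cypermethrin (1.80, q = 0.00323) in the authors' deposited tables. In the field the authors' deposited tables list log2 fold changes of 13.95, 14.29 and 15.06, each the largest of all finite fold changes among tested gene models (9686, 9870 and 10037 of them). Their q-values were 0.109, 0.147 and 0.0917 in the authors' deposited tables, so none passed 0.05. The untreated values in these contrasts chose the member, so these calls are a description. Within a population the same untreated libraries serve all 3 comparisons.

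In addition, 2 members stood at 5-fold or more of the untreated lab level in all 3 field survivor groups, DS10_00002691, named after its values were seen, and DS10_00013455. DS10_00002691 (scaffold 2, 6343008 to 6343685) was listed at 0 in untreated field flies and stood at 38.6, 25.6 and 59.5 FPKM in field survivors. Its lab values were 1.45 FPKM untreated and 2.39, 1.33 and 3.88 FPKM in the survivors. All 3 field survivor groups were above every lab group. DS10_00002691 was called higher in all 3 field comparisons (q = 0.00045, 0.00051 and 0.00027, authors' deposited tables). The untreated values in these contrasts chose the member, so its calls are a description. In lab zeta-cypermethrin survivors it was 2.76-fold higher and not called (log2 fold change 1.46, q = 0.497, authors' deposited table).

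DS10_00013455 (scaffold 3870, 846 to 3377) stood at 0.0424 FPKM in untreated field flies and at 24.8, 12.9 and 13.1 FPKM in the field survivors. In the lab it stood at 1.19 FPKM untreated and at 1.24, 3.27 and 3.56 FPKM in the survivors. It was called higher in lab zeta-cypermethrin survivors, 3.07-fold (log2 fold change 1.62, q = 0.0142), in the authors' deposited table. Its scaffold holds no other gene model.

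DS10_00004288 (scaffold 3, 7953316 to 7955498) was the second highest member in field spinosad survivors. It stood at 0.0683 FPKM in untreated field flies and at 45.9, 13.8 and 18.5 FPKM in the field survivors. The lab values were 5.65 FPKM untreated and 4.20, 11.7 and 5.45 FPKM in the survivors, so that 1 of the 3 lab survivor groups was above the untreated one. By the authors' deposited tables it passed in neither population, with q-values of 0.135, 0.285 and 0.262 in the field and 0.950, 0.0883 and 0.999 in the lab.

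DS10_00010232 (scaffold 126, 266726 to 266904) was on in only some groups, at extreme levels. It stood at 984 FPKM in field malathion, 1815 FPKM in field zeta-cypermethrin and 1316 FPKM in lab malathion survivors. It was listed at 0 in untreated field flies, field spinosad, lab spinosad and lab zeta-cypermethrin survivors, and it stood at 2.70 FPKM in untreated lab flies. In the series 8 gene models were on in those 3 survivor groups and under 0.1 FPKM in the other 3, and 2 of the 8 were members. The other, DS10_00008938, named after its values were seen, stood far lower, at 1.89 FPKM in field malathion, 8.63 FPKM in field zeta-cypermethrin and 6.15 FPKM in lab malathion survivors. By the authors' deposited tables DS10_00010232 was called higher in field malathion (q = 0.00051) and field zeta-cypermethrin survivors (q = 0.00027). In lab malathion survivors it was 487-fold higher and not called (log2 fold change 8.93, q = 0.773). The untreated values in these contrasts chose the member, so its calls are a description. Its locus is 179 bases long.

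**Figure D3:**
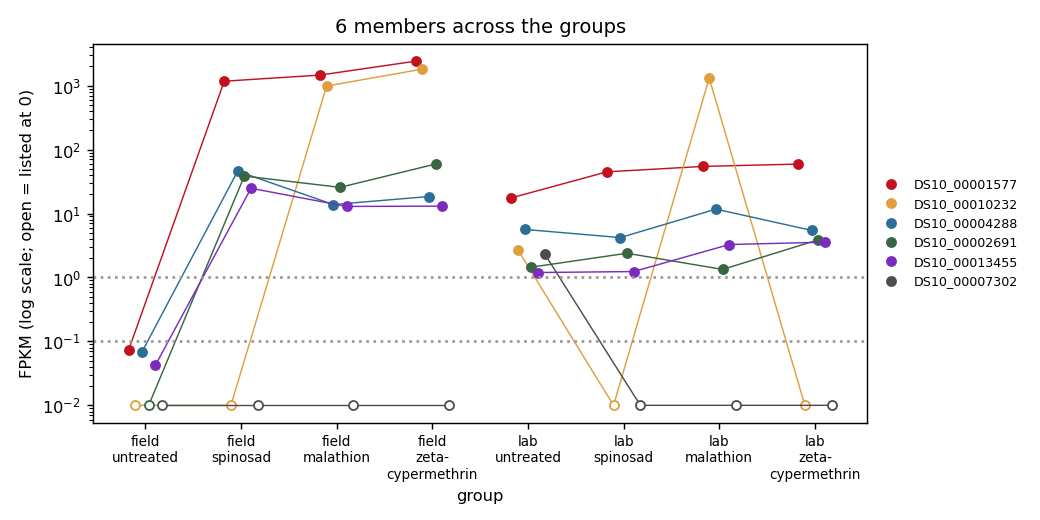
FPKM (log axis) of 6 members in the 8 groups, with open points for values listed at 0 and dotted lines at 0.1 and 1 FPKM. DS10_00001577 reaches 1173 to 2413 FPKM in field survivors and 44.9 to 59.3 FPKM in lab survivors, while DS10_00007302 is above 0 only in untreated lab flies.

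Under 0.1 FPKM in all 6 survivor groups were 3 members, so that untreated lab flies were the only group where they were on. DS10_00007302 (scaffold 13, 332337 to 335931) stood at 2.33 FPKM there and was listed at 0 in the other 7 groups. DS10_00011720 stood at 2.48 FPKM there and was also listed at 0 in the other 7, but in the spinosad table the same lab libraries were at 0 too. DS10_00006760 stood at 1.46 FPKM in untreated lab flies and at no more than 0.0752 FPKM elsewhere. It shares its locus with DS10_00006761, which was on in every group, between 3.75 and 12.9 FPKM. DS10_00006761 stood at 4.40 FPKM in untreated field and 8.87 FPKM in untreated lab flies. Whether reads were divided between these gene models was not tested. For these 3 members untreated field flies and all survivor groups were alike in being under 0.1 FPKM. DS10_00011720, DS10_00006760 and DS10_00006761 are named after their values were seen.

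Among the members, the level in untreated lab flies went only weakly with the level in survivors. DS10_00013516 (scaffold 6280, 1167 to 1311), second in untreated lab flies at 17.2 FPKM, was at 19.3 FPKM in lab zeta-cypermethrin survivors and listed at 0 in the other 6 groups. DS10_00007294 (scaffold 13, 290413 to 291292), at 3.45 FPKM in untreated lab flies, was second in lab spinosad survivors at 21.0 FPKM and was listed at 0 in lab zeta-cypermethrin survivors. Across the 45 members the level in untreated lab flies and the level in a survivor group had Spearman rho between −0.012 and 0.325, on FPKM with 0.1 added. Among the other gene models these values were 0.939 to 0.985. The members cover a narrow range in untreated lab flies, which the rule set, and all points of a group come from the same pooled libraries.

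Between survivor groups rho over the 45 members ran from 0.211 to 0.776, and over the other gene models from 0.927 to 0.986. It was 0.5999 between field spinosad and field malathion survivors, 0.549 between field spinosad and field zeta-cypermethrin, and 0.608 between field malathion and field zeta-cypermethrin. The highest value, 0.776, was for field zeta-cypermethrin and lab malathion survivors, which share neither population nor insecticide. For the lab groups among themselves it was 0.450 for spinosad and malathion, 0.449 for spinosad and zeta-cypermethrin, and 0.211 for malathion and zeta-cypermethrin. These are descriptions over gene models, which are not replicates. In the survivor groups the members had medians of 0.953 to 1.96 FPKM, and 8 to 11 of them were tied at 0. The other gene models had medians of 24.4 to 27.6 FPKM there. The part of level and of ties in the lower rho of the members was not tested.

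The authors' comparisons tested only some of the members. The untreated value of each contrast chose the members, so the counts are printed beside the shares of all tested gene models and nothing is read from them. In field spinosad survivors 24 members were tested and 7 called higher (25.9% of all tested gene models were called higher). For malathion 22 were tested and 8 called higher (17.8%), and for zeta-cypermethrin 24 were tested and 9 called higher (27.8%). In the lab 28, 37 and 33 members were tested under spinosad, malathion and zeta-cypermethrin, and 1, 1 and 2 were called higher (2.02%, 2.98% and 1.79%). No member (0) was called lower in any of the 6 comparisons at the authors' q of 0.05 or less from Cuffdiff, where 10.3%, 4.22% and 20.4% of tested gene models were called lower in the field and 1.6%, 2.65% and 1.14% in the lab. At an unadjusted p under 0.05 in the authors' Cuffdiff test, 0 members were lower in each field comparison and 1 in each lab comparison. Members stood at no more than 0.187 FPKM in untreated field flies in any field comparison. The field counts of 0 lower members were therefore nearly fixed by the rule.

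The counts are given next by whether untreated field flies were listed at 0, again as a description, since that value chose the members. Of tested members at 0 there, 7 of 11 were called higher for spinosad, 8 of 12 for malathion and 8 of 13 for zeta-cypermethrin, where 88.5%, 84.6% and 84.3% of all tested gene models at 0 were. Of tested members above 0 there, 0 of 13, 0 of 10 and 1 of 11 were called higher, where 24.2%, 13.4% and 24.2% of all tested gene models above 0 were. In the field, of tested members above 0 in untreated flies, 1 in each table was higher at an unadjusted p under 0.05 in the authors' Cuffdiff test. The single one called was DS10_00003900, from 0.0608 to 6.04 FPKM under zeta-cypermethrin (log2 fold change 6.63, q = 0.0498, authors' deposited table), close to the limit. The lowest survivor level of a called member was 0.944 FPKM, for DS10_00002965 under spinosad (q = 0.00925, authors' deposited table), which was listed at 0 in untreated field flies. Both are named after their values were seen. Of the 29 members tested in at least 1 field comparison 10 were called higher in at least 1 (31.6% of all gene models so tested), and of the 19 tested in all 3 comparisons 6 were called higher in all 3 (14.8%).

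**Figure D4:**
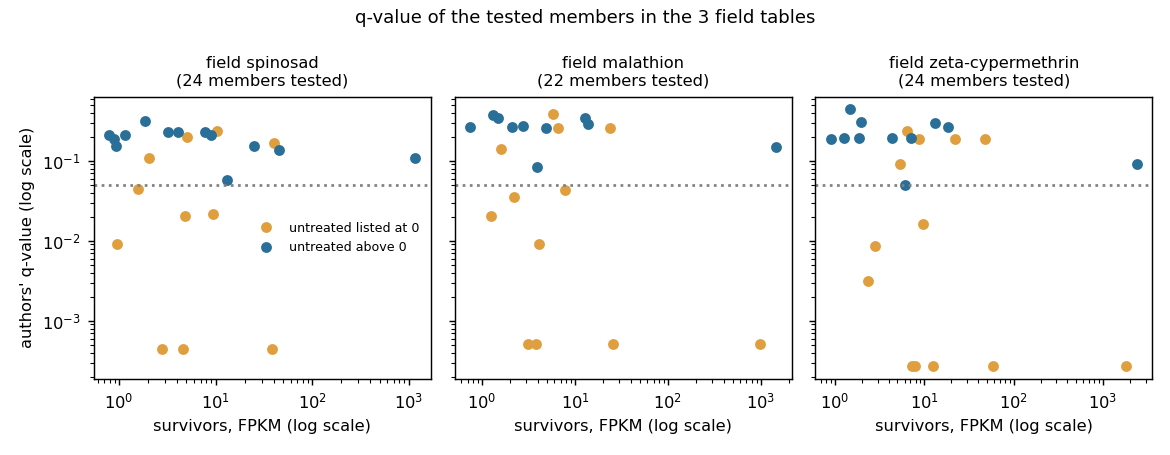
Authors' q-value (log axis) against the level in field survivors (FPKM, log axis) for the tested members, 1 panel per insecticide, with colour for an untreated value at 0 or above 0 and a dotted line at 0.05. The points under the line are at 0 in untreated flies, with 1 exception under zeta-cypermethrin, other points at 0 lie above it, and DS10_00001577 lies at the far right above the line.

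Members had short loci. Their median locus length was 623 bases (range 111 to 25699), against 2967 bases for all gene models on in untreated lab flies and 2382.5 bases for all gene models. Loci under 300 bases, a limit chosen after the values were seen, made up 16 of the 45 members (35.6%) and 1.63% of the other gene models on in untreated lab flies. Of the 168 gene models on in untreated lab flies with such loci, 9.52% were members, and of the 9181 with longer loci 0.316% were. FPKM divides by length, so a few fragments give a high value to a short gene model, and the part of length in these counts was not tested.

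**Figure D5:**
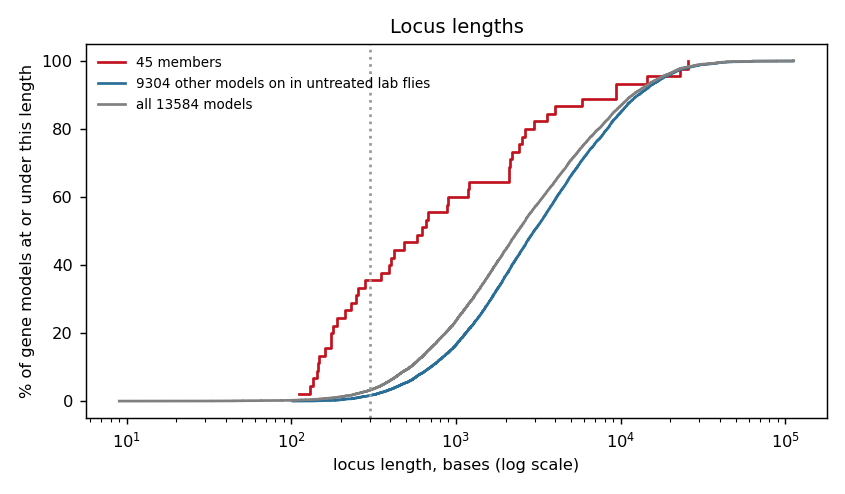
Cumulative percent of gene models (vertical axis) by locus length in bases (log axis) for the 45 members, the 9304 other gene models on in untreated lab flies and all 13584 gene models. The members' median of 623 bases lies below those of both other sets, and 35.6% of members lie left of the dotted line at 300 bases.

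In the survivor groups, values listed at 0 made up a larger share among the short members than among the longer ones, a difference that was not tested. There 41 of the 96 values of the short members were 0, and 19 of the 174 values of the longer members. All 16 short members were also listed at 0 in untreated field flies, against 12 of the 29 longer ones. Values under 0.1 FPKM in those flies chose the members, so nothing is read from that count. Only 2 of the 16 short members, against 8 of the 29 longer ones, were on in all 6 survivor groups. Of the short members 7, 9 and 7 were on in field survivors, and of the longer ones 17, 17 and 19.

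The shortest loci show this scatter. DS10_00008026 (scaffold 20, 665827 to 665937), 111 bases long, stood at 8.44 FPKM in untreated lab flies, at 7.46 FPKM in field malathion, 5.30 FPKM in lab spinosad and 3.997 FPKM in lab zeta-cypermethrin survivors, and was listed at 0 in the other 4 groups. In the spinosad table its level in the same untreated lab libraries was 5.05 FPKM. DS10_00010848 (scaffold 145, 57034 to 57162), 129 bases long, stood at 2.12 FPKM in untreated lab flies and at 3.05, 5.30, 1.65 and 3.57 FPKM in field spinosad, field zeta-cypermethrin, lab malathion and lab zeta-cypermethrin survivors, and was listed at 0 in the other 3 groups. The 2 members do not share their set of groups at 0.

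The 4 longest loci of members, from 9333 to 25699 bases, are each shared with other gene models, so their length is not that of the member alone. DS10_00002243 (scaffold 2, 2323607 to 2349305), 25699 bases long, stood at 0.0868 FPKM in untreated field flies and at 1.87, 1.33 and 1.46 FPKM in the field survivors. Its lab values were 1.30 FPKM untreated and 0.748, 1.06 and 1.25 FPKM in the survivors, so that all groups but untreated field flies lay within a narrow range. DS10_00011938 (scaffold 412, 96941 to 119900), 22960 bases long, was listed at 0 in untreated field flies and stood at 10.3, 5.80 and 6.47 FPKM in the field survivors. In the lab it stood at 4.05 FPKM untreated and at 3.36, 5.32 and 5.60 FPKM in the survivors.

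A locus was not always that of 1 gene model. For 6 members (13.3%) the deposited locus was the same as that of other gene models. This share was 11.7% among the other gene models on in untreated lab flies and 10.7% among all gene models. The length of such a locus is not that of the member alone, and reads there could be divided between the gene models that share it. DS10_00002243 shares its locus with DS10_00002244, which stood at no more than 0.142 FPKM in any group. DS10_00011938 shares its locus with DS10_00011939, at no more than 0.0672 FPKM in any group, and with DS10_00011940. DS10_00011940 stood at 0.324 FPKM in untreated field flies, 4.86, 2.46 and 3.03 FPKM in field survivors and 2.60 FPKM in untreated lab flies. DS10_00006766 (scaffold 8, 2475626 to 2490081), the highest member in lab zeta-cypermethrin survivors, was listed at 0 in untreated field flies, at 40.02, 6.498 and 47.4 FPKM in the field survivors, at 13.6 FPKM in untreated lab flies and at 3.83, 21.7 and 74.0 FPKM in the lab survivors. Of the 4 other gene models at the same locus, 3 were, like DS10_00006766, lowest in untreated field flies and highest in lab zeta-cypermethrin survivors. DS10_00006764 stood at 2.12 and 379 FPKM in these groups, DS10_00006765 at 7.01 and 59.8 FPKM, and DS10_00006762 at 14.6 and 29.3 FPKM. The fourth, DS10_00006763, was highest in untreated field flies and lay between 69.3 and 90.8 FPKM in every group. The gene models that share these loci are named after their values were seen.

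A pair of members had values that were equal to the last digit given. DS10_00007294 and DS10_00012145, on scaffolds 13 and 537, both stood at 3.45 FPKM in untreated lab flies and at 3.93 FPKM in field zeta-cypermethrin survivors, although their loci are 880 and 173 bases long. They differed in lab spinosad survivors, where DS10_00007294 stood at 21.0 FPKM and DS10_00012145 was listed at 0. In lab malathion survivors they differed too, at 8.11 and 5.57 FPKM. For the same untreated lab libraries the spinosad table gives 3.61 and 0 FPKM. Whether these gene models are near-identical copies was not tested, and the values of both are uncertain.

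Members were not found in runs. They lay on 25 of the 902 scaffolds, 17 of which held 1 member each. Scaffold 1 held 7 members, 0.499% of its 1404 gene models on in untreated lab flies, close to the 0.481% of the whole series. Scaffolds 2 and 3 held 5 each (0.430% and 0.649%). No member (0 of 45) was next to another, where members made up 0.331% of all gene models and 0.481% of those on in untreated lab flies. At such shares a count of 0 says little about clustering. The median distance between successive members of 1 scaffold was 2125779 bases. Within 10000 bases of each other were DS10_00006760 and DS10_00006766 on scaffold 8, 1895 bases apart, both at loci shared with other gene models. DS10_00007294 and DS10_00007302 on scaffold 13 lay 41044 bases apart with 7 gene models between them, and DS10_00005094 and DS10_00005097 on scaffold 5 lay 44996 bases apart with 2 between them. Scaffold 13 held 2 members, 3.08% of its 65 gene models on in untreated lab flies.

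Of the 7 members of scaffold 1, 4 are described here beside DS10_00001577, and they did not share a pattern. DS10_00000840 (8937946 to 8938568) was listed at 0 in untreated field flies and stood at 4.65, 3.79 and 12.5 FPKM in the field survivors, and at 1.54 FPKM untreated and 3.20, 0.469 and 0.838 FPKM in lab survivors. DS10_00000528 (5615846 to 5621708) was listed at 0 in untreated field flies and stood at 2.81, 3.16 and 7.81 FPKM in the field survivors, against 1.10 FPKM untreated and 1.14, 1.07 and 0.722 FPKM in lab survivors. In both, all 3 field survivor groups were above untreated lab flies. DS10_00000528 shares its locus with DS10_00000529, named after its values were seen. DS10_00000529 was listed at 0 in both untreated groups, and stood at 0.663, 2.18 and 1.86 FPKM in field and 0, 0.401 and 0 FPKM in lab survivors. In the spinosad table DS10_00000528 stood at 0.996 FPKM in untreated lab flies, just under the lab minimum.

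The other pair named on scaffold 1 was lower. DS10_00000463 (4883953 to 4886945) stood at 0.0521 FPKM in untreated field flies and at 0.787, 0.314 and 0.295 FPKM in the field survivors, below its 1.10 FPKM in untreated lab flies, with 1.85, 0.369 and 0.422 FPKM in lab survivors. DS10_00000152 (1789803 to 1789937) was listed at 0 in all 4 field groups and in lab spinosad and lab malathion survivors, and stood at 1.32 FPKM in untreated lab flies and 1.86 FPKM in lab zeta-cypermethrin survivors.

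The gene models next to a member numbered 79. Of these, 24 were under 0.1 FPKM in untreated field flies, where 3274 of all 13584 gene models were. On in untreated lab flies were 50 of the 79, and 9349 of all 13584 gene models. None of the 79 belonged to both counts, since it would then be a member. Of the 50, 26 (52.0%) were under 0.5-fold of their untreated lab level in untreated field flies, against 28.7% of all gene models on in untreated lab flies. The 50 had a median of 21.3 FPKM in untreated lab flies. Among the 19 of them at 1 to 10 FPKM there, 17 (89.5%) were under 0.5-fold, against 59.8% of all gene models in that range of levels. The median log2 ratio of untreated field to untreated lab flies over the 50, with 0.1 FPKM added, was −1.03, against 0.13 over all gene models on in untreated lab flies. These differences were not tested, and 6 members have a neighbour that shares their locus. DS10_00005321 lies before DS10_00005322 on scaffold 5, with a gap of 35872 bases. DS10_00005321 stood at 0.175 FPKM in untreated field flies, 8.90, 4.85 and 5.42 FPKM in field survivors and 1.34 FPKM in untreated lab flies. DS10_00005322 itself stood at 0.0855, 8.87, 4.85, 7.07 and 1.01 FPKM in the same 5 groups. DS10_00004610 lies after DS10_00004609 on scaffold 3, with a gap of 21383 bases. DS10_00004610 stood at 0.276 FPKM in untreated field flies and at 356, 400 and 679 FPKM in the field survivors, while DS10_00004609 was listed at 0 and stood at 4.78, 1.61 and 0 FPKM. These neighbours, DS10_00004609 and DS10_00005097 are named after their values were seen. The neighbours named do not stand for all 79.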

How the data were processed

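The authors deposited 6 Cuffdiff gene tables, 1 per insecticide and population, each setting survivors against untreated flies. Per the submitters' processing notes, FastQC, TopHat2 2.0.13, Cufflinks 2.2.1 and Cuffdiff were used, and the build is not given in the sources used here. Per the file headers, the tables hold FPKM pooled over 3 replicates, a log2 fold change, a test statistic (a score), a p-value and a q-value. In the tables for malathion and for zeta-cypermethrin the groups have generic names, read as untreated first, from the order in the table names.

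Members were joined by ID with pandas 2.3.3 in Python 3.11.15. Untreated levels are those of the malathion tables, and survivor levels those of each insecticide's table. Calls are the authors' at a q of 0.05 or less. Ratios of levels used a pseudocount of 0.1 FPKM, with no filter on low values, and carry no test. Locus length is end minus start as deposited, and neighbours were taken by locus start. The rule and neighbour steps were tested on simulated data. Replicate values were not analysed here. No replicate error, paired fit or left-out replicate could be made, and nothing in the labels says whether replicates came from separate cultures. Without counts no counting interval was computed. The members, and the rule for those named, were chosen with earlier results of these data known. Named by that rule are the 2 highest members in untreated lab flies and in each survivor group, the largest lab calls, members nearest each threshold, up to 4 on the scaffold with most members, those with the longest and shortest loci, and the 2 lowest in field survivors. Others are said to be named after their values were seen. Alternatives changed the thresholds, the table of the untreated values, the call rule, the pseudocount, the filter on low values and what counts as next to another member.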

Additional observations from a re-analysis of the deposited data

How the results depend on the processing

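Of 107 alternatives over 21 results, 90 concerned the number of members and percents. Of these, 71 left the value within its range (1.5 times for the number, the exact 95% binomial interval for percents) and 19 moved it beyond. The interval treats members as independent, though their values come from the same pooled libraries. Most alternative sets are parts of the same 45, so a value within its range says little about stability. The other 17 concerned medians, which have no such range, and each differed from its value over the 45 members. None (0) was tested, so none could pass or lose a test. The number of members was 45, and 17 with a lab minimum of 2 FPKM, 28 with untreated field flies listed at 0, 18 when only gene models tested in all 6 tables were kept, and 29 with loci of 300 bases or more, a limit added after seeing the data. Median locus length was 255, 250, 2150 and 2110 bases in these sets, and 576 bases with the spinosad tables.

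Among the 18 tested members the percent on was 88.9%, 94.4% and 100% in field survivors (spinosad, malathion and zeta-cypermethrin in this order) and 72.2%, 88.9% and 77.8% in lab survivors. Such members had to be high enough in a group to be tested. Their median log2 ratios to untreated lab flies were 1.54, 0.61 and 1.47 in the field and −0.0473, 0.42 and 0.19 in the lab; the last 2 changed sign, as did field spinosad. With a pseudocount of 1 FPKM the medians over 45 members were −0.15, 0.0176 and 0.0959 in the field and −0.35, −0.0687 and −0.27 in the lab. With on set at 0.5 FPKM, 68.9% of members were on in field spinosad, 68.9% in lab spinosad and 66.7% in lab zeta-cypermethrin survivors. With 2 FPKM, 24.4% were on in lab spinosad and 42.2% in lab malathion survivors. With the lab minimum of 2 FPKM, 1 of 17 members (5.88%) was called higher in field spinosad survivors, against 7 of all 45 (15.6%). These shares include untested members, and 25.9% of all tested gene models were called higher there. The untreated value of this contrast chose the members, so nothing is read from the difference. Among the 28 listed at 0 in untreated field flies, 0% were called higher in each lab comparison. Of all 45 it was 1, 1 and 2 members (2.22%, 2.22% and 4.44%), and of all tested gene models 2.02%, 2.98% and 1.79%. The called members, DS10_00001577 and DS10_00013455, were above 0 in untreated field flies, so leaving them out set these shares to 0%. The cause of the other moves was not tested. No paired analysis was possible because the deposited columns hold 1 pooled value per group and carry no replicate numbers, and leaving out a replicate was not run for the same reason.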
